A study of Strongylocentrotus purpuratus with 4 samples.

Results

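The 150 genes described here are those whose summed level was lowest at 72 hours post fertilization (hpf) relative to 48 hpf in cells of the purple sea urchin, Strongylocentrotus purpuratus. They were taken from the 8459 genes, of 32262 in the files, that had at least 200 unique molecular identifiers (UMIs, 1 for each captured transcript molecule) over both libraries. Genes were ranked by the ratio of CPM (UMIs of a gene over all UMIs of the summed cells, times 1000000) plus 1 at 72 hpf over that at 48 hpf, with all kept cells of a library summed. The ratio chose the genes, so it is given as a description throughout, and there is no test, because each condition is 1 library.

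The libraries used were uninjected larvae at 72 hpf, gastrulae at 48 hpf injected with a control morpholino (control MO), and uninjected gastrulae at 48 hpf. Cells of both uninjected libraries were enriched for ectoderm and sequenced in a lane each, whereas the control MO library came from whole embryos selected for the expected phenotype and shared a lane with a knockdown library that was not used here. The control MO has no target in this species, and its use adds injection to the other differences. Each uninjected library was its own enrichment, so stage, enrichment, library and lane cannot be told apart between 72 and 48 hpf. Nor can injection, dissection, library and lane at 48 hpf.

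Cells with 400 to 2500 detected genes were kept, which left 6666 cells and 14602157 UMIs at 72 hpf, 3323 cells and 9314829 UMIs with the control MO, and 5170 cells and 15379620 UMIs at 48 hpf. Median depth was 1487 UMIs per cell at 72 hpf, 2684 with the control MO and 3063.5 at 48 hpf. Of the kept cell barcodes, 14 occurred at both 72 and 48 hpf, 8 at 72 hpf and with the control MO, and 8 with the control MO and at 48 hpf. A single metallothionein gene, MTa, took 8.27% of UMIs at 72 hpf, 3.18% with the control MO and 2.67% at 48 hpf, which lowers every other CPM value at 72 hpf. The median ratio over all 8459 genes was 0.947.

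At 48 hpf the gastrula forms its gut from the vegetal plate, its skeletogenic mesenchyme secretes the larval spicules, and its pigment cells, marked by the polyketide synthase gene pks1, settle in the aboral ectoderm. By 72 hpf the early larva has a tripartite gut, an open mouth and a growing skeleton. Transcription factors that set up these territories are commonly used in a stage-limited way in sea urchin embryos, and several of them are among the 150 genes.

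The 150 genes together made up 2881 CPM at 72 hpf, 19218 CPM with the control MO and 18110 CPM at 48 hpf, that is 0.288%, 1.92% and 1.81% of the UMIs of these libraries in the same order. Their median level was 3.94 CPM at 72 hpf, 42.7 CPM with the control MO and 35.4 CPM at 48 hpf. Ratios of CPM plus 1 ranged between 0.0158 and 0.248 with a median of 0.164, and 39 genes were at 0.1 or below. For comparison, 8.32% of all genes tested had a ratio of 0.5 or below. In summed libraries, fewer cells of a type and less RNA per cell cannot be told apart.

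**Figure D1:**
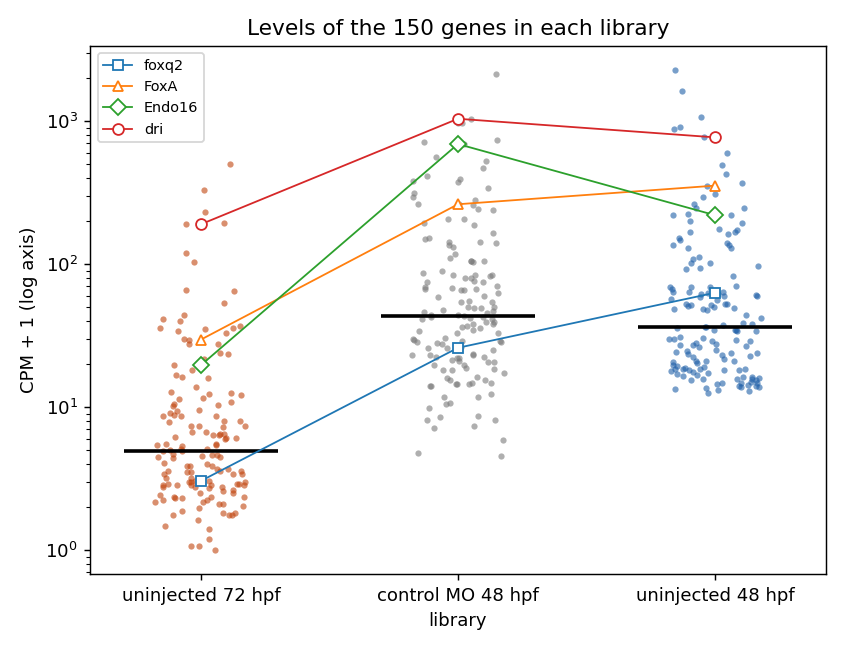
Level of each of the 150 genes as CPM plus 1 on a log axis in the uninjected 72 hpf, control MO 48 hpf and uninjected 48 hpf libraries, with 1 point per gene, a black bar at the median and lines for 4 named genes. The points at 72 hpf lie around 3.94 CPM, against 42.7 CPM with the control MO and 35.4 CPM at 48 hpf, and Endo16 was the one of the 4 that stood far higher with the control MO than at 48 hpf without injection.

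The ranking has no gap at its end. The last 2 genes inside, dri and LOC577898, had ratios of 0.247 and 0.248, and the first 2 outside, LOC575987 and LOC591121, had 0.248 and 0.2501. Only 12 of the 150 genes carry a name in the files, and 138 have an identifier without a stated function.

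Regulators and structural genes of the gut were the most complete group of named genes. All 4 genes of the gut list that reached 200 UMIs, out of 5 found in the files, were among the 150. The remaining gene, lox, was under 200 UMIs and had a higher ratio of CPM plus 1, 0.642. Its level was 3.15 CPM at 72 hpf, 1.93 CPM with the control MO and 5.46 CPM at 48 hpf. Endo16, a secreted protein of the vegetal plate and later the midgut, had 18.7 CPM at 72 hpf, 690 CPM with the control MO and 219 CPM at 48 hpf. GATAe, an endodermal GATA factor, had 3.08 CPM at 72 hpf, 89.1 CPM with the control MO and 33.5 CPM at 48 hpf. The zinc finger regulator of endomesoderm blimp1/krox had 4.52 CPM at 72 hpf, 103 CPM with the control MO and 48.6 CPM at 48 hpf. In each of these 3 genes the control MO library was the highest.

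FoxA, a forkhead factor of the endoderm and of the stomodeal ectoderm where the mouth forms, followed another order. It had 28.7 CPM at 72 hpf, 261 CPM with the control MO and 353 CPM at 48 hpf, so that the uninjected 48 hpf library was the highest.

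Genes of the apical and oral ectoderm were also present. The apical plate regulator foxq2 was the lowest of the named genes. It had 2.05 CPM at 72 hpf, 25.01 CPM with the control MO and 62.1 CPM at 48 hpf, a CPM ratio of 72 over 48 hpf of 0.0331 (exact conditional binomial 95% interval 0.0222 to 0.0475, for counting error only, as are all intervals here). CHRD, the BMP antagonist chordin that is made in the oral ectoderm, had 6.44 CPM at 72 hpf, 54.4 CPM with the control MO and 60.7 CPM at 48 hpf. The homeobox gene Not had 4.999 CPM at 72 hpf, 42.5 CPM with the control MO and 51.2 CPM at 48 hpf. For these 3 genes the 72 hpf library was far below both 48 hpf libraries.

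Other genes of the same lists had higher ratios. In the list of oral ectoderm and signals, 2 of 5 tested genes were among the 150, Gsc was at a ratio of 0.357, FoxG at 1.09 and BMP2/4, the ligand that chordin binds, at 2.03. Of 5 apical and neural genes only foxq2 was a member, with NK2.1 at 0.478, SoxB1 at 0.756, delta at 1.08 and SoxB2 at 1.14. None of the 4 pigment genes, 24 cell cycle genes, 8 skeletogenic genes or 8 aboral ectoderm genes tested was among the 150. The median ratio was 0.595 for the pigment list, 0.813 for the cell cycle list, 0.554 for the skeletogenic list and 0.993 for the aboral ectoderm list.

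Among matrix genes, 2 collagens were members. COLP3alpha had 34.5 CPM at 72 hpf, 523 CPM with the control MO and 161 CPM at 48 hpf. COLP4alpha, which the files list as 2 gene models, had 15.0 CPM at 72 hpf, 139 CPM with the control MO and 68.5 CPM at 48 hpf for the model that is a member. The other model was under 200 UMIs, with 3.22 CPM at 72 hpf, 9.88 CPM with the control MO and 5.85 CPM at 48 hpf, and how reads were divided between the models is not given in the sources used here. All 5 matrix genes tested were at 0.5 or below, with SPARC, a collagen-binding matrix protein, just outside the 150 at a ratio of 0.260.

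The genes with the lowest ratios are all without a name. LOC583821 had 1.78 CPM at 72 hpf, 64.6 CPM with the control MO and 175 CPM at 48 hpf, the lowest ratio of all, 0.0158. LOC575172 had 1.85 CPM at 72 hpf, 61.6 CPM with the control MO and 166 CPM at 48 hpf. LOC105438846 had 0.753 CPM at 72 hpf, 85.1 CPM with the control MO and 91.8 CPM at 48 hpf. High-ARS cells, a class defined below, accounted for most of the lost CPM of LOC583821 and LOC105438846, and pigment cells for that of LOC575172. LOC105445628 had no UMI at 72 hpf, 35 with the control MO and 222 at 48 hpf, so that its level at 72 hpf was at least 70.3-fold lower than at 48 hpf when the floor is set at 3 counts in the library.

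At the other end of the scale, a few abundant genes carried much of the sum. The 10 genes with the highest level at 48 hpf accounted for a large part of it, since without them the other 140 genes summed to 1080 CPM at 72 hpf, 11680 CPM with the control MO and 8715 CPM at 48 hpf. LOC575388 had 502 CPM at 72 hpf, 971 CPM with the control MO and 2278 CPM at 48 hpf. LOC755214 had 329 CPM at 72 hpf, 737 CPM with the control MO and 1611 CPM at 48 hpf. Both were higher at 48 hpf without injection than with the control MO, and still lowest at 72 hpf.

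Each cell was placed in a class by its marker UMIs. Pigment cells had at least 3 UMIs and 0.2% of their UMIs from pks1, sult1c2 and fmo5-1, gut cells from Endo16, and skeletogenic cells from the spicule matrix and mesenchyme genes SM50, SM37, SM30A, msp130 and Alx1. High-ARS cells had at least 0.5% of their UMIs from ARS, an arylsulfatase of the aboral ectoderm, and no mark of the first 3 classes, and the remaining cells are called other. Since Endo16 is both the only gut marker and one of the 150 genes, a gut cell with little Endo16 counts as other.

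Cell numbers differed most for the gut, and the part of the ectoderm enrichment in this was not tested. Gut cells were 14 of 6666 (0.210%, Clopper-Pearson 95% interval 0.115 to 0.352) at 72 hpf, 241 of 3323 (7.25%, 6.39 to 8.19) with the control MO and 95 of 5170 (1.84%, 1.49 to 2.24) at 48 hpf. Pigment cells were 10.9% at 72 hpf, 6.11% in the control MO library and 9.46% at 48 hpf. Skeletogenic cells numbered 17 at 72 hpf, 56 with the control MO and 25 at 48 hpf. High-ARS cells were 49.4% at 72 hpf, 46.9% with the control MO and 51.1% at 48 hpf, and other cells 39.2%, 37.9% and 37.0% in the same order. Between 1 and 5 cells a library met 2 of the first 3 classes and were set apart.

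The classes carried their markers. In gut cells, regulators that took no part in the class rule were present in all 3 libraries, with FoxA at 751 CPM at 72 hpf, 987 CPM with the control MO and 1595 CPM at 48 hpf. Outside its own class a marker reached between 0.0395% and 2.13% of its level in that class at 72 hpf, 0.127% and 1.33% with the control MO, and 0.0430% and 0.964% at 48 hpf, measured for 5 markers in high-ARS and other cells. Free RNA in droplets can give values of this size, so a member at so small a share of its highest class is not read as expressed there. The marker ARS was not among the 5 and stood higher outside its class. At 72 hpf it had 4869 CPM in pigment cells, against 18473 CPM in high-ARS cells. At 48 hpf it had 4153 CPM in pigment and 5068 CPM in skeletogenic cells, against 25962 CPM in high-ARS cells. The part of free RNA in these values was not tested.

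Summed over the 150 genes, every class was lower at 72 hpf than in either 48 hpf library. Pigment cells had 7960 CPM at 72 hpf, 46813 CPM with the control MO and 55434 CPM at 48 hpf. Gut cells had 43793 CPM at 72 hpf, 52854 CPM with the control MO and 55880 CPM at 48 hpf. Skeletogenic cells had 20568 CPM at 72 hpf, 52763 CPM with the control MO and 50608 CPM at 48 hpf. In gut cells the sums rest largely on LOC591984 and on Endo16, whose level the class rule sets, and without these 2 genes they were 14996 CPM at 72 hpf, 29686 CPM with the control MO and 28109 CPM at 48 hpf. High-ARS cells had 1821 CPM at 72 hpf, 9368 CPM with the control MO and 12218 CPM at 48 hpf, and other cells 3041 CPM at 72 hpf, 16818 CPM with the control MO and 16453 CPM at 48 hpf.

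**Figure D2:**
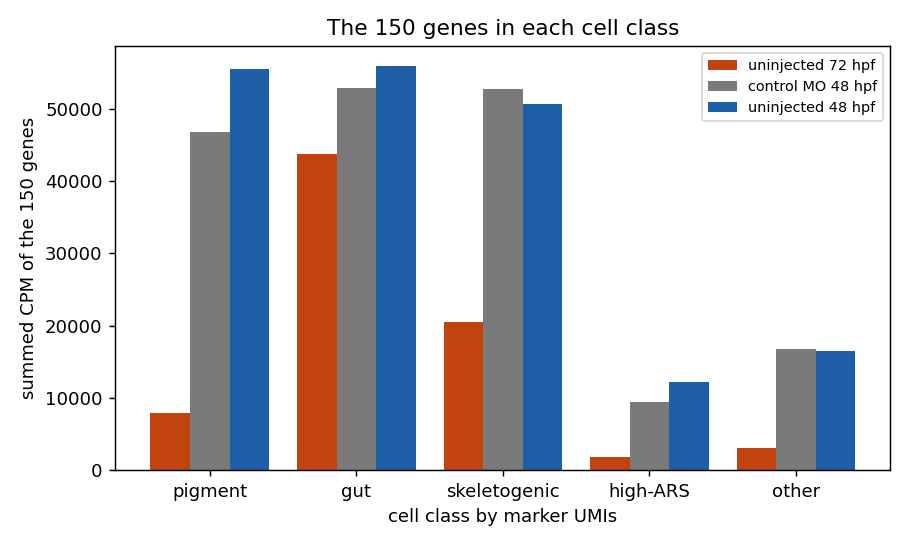
Summed CPM of the 150 genes in each cell class, with bars for the uninjected 72 hpf, control MO 48 hpf and uninjected 48 hpf libraries and 1 library per bar, so no error bars. Pigment cells had 7960 CPM at 72 hpf against 55434 CPM at 48 hpf, whereas gut cells, only 14 of them at 72 hpf, had 43793 CPM against 55880 CPM, with LOC591984 alone at 24067 CPM and 21330 CPM.

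Within each class, ratios were computed for members with at least 50 UMIs over both libraries in that class. A marker was left out of its own class. A gene was counted as lower where its CPM ratio was 0.5 or below and the exact conditional binomial 95% interval was below 1. In pigment cells 40 of 42 members met this, beside 10.6% of all genes measured there, and their median ratio was 0.152. In high-ARS cells 116 of 120 members met it, beside 11.6%, with a median of 0.158. In other cells 132 of 140 met it, beside 8.41%, with a median of 0.137. These cells chose the genes, so high shares follow in part from the choice itself. The counts also take in members whose level in a class is one that free RNA can give. At 48 hpf LOC591984 had 129 CPM in high-ARS cells, against 21330 CPM in gut cells. LOC575388 had 154 CPM in high-ARS cells, against 28863 CPM in pigment cells. The counts are thus not of genes expressed in a class, and a count limited by the share of the highest class level is given below.

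The small classes differed from pigment, high-ARS and other cells. In gut cells 18 of 32 members were lower, beside 13.1% of all genes measured, with a median ratio of 0.428, and 6 members had a ratio above 1. In skeletogenic cells 11 of 14 were lower, beside 17.5%, with a median of 0.277, and 2 had a ratio above 1. The 2 were LOC575388, whose 44 UMIs at 72 hpf lay in 4 of 17 skeletogenic cells with 24 in a single cell, and LOC589794, with 84 of 93 UMIs in a single cell. Both classes rest on few cells at 72 hpf. Their medians were not tested against those of the larger classes.

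**Figure D3:**
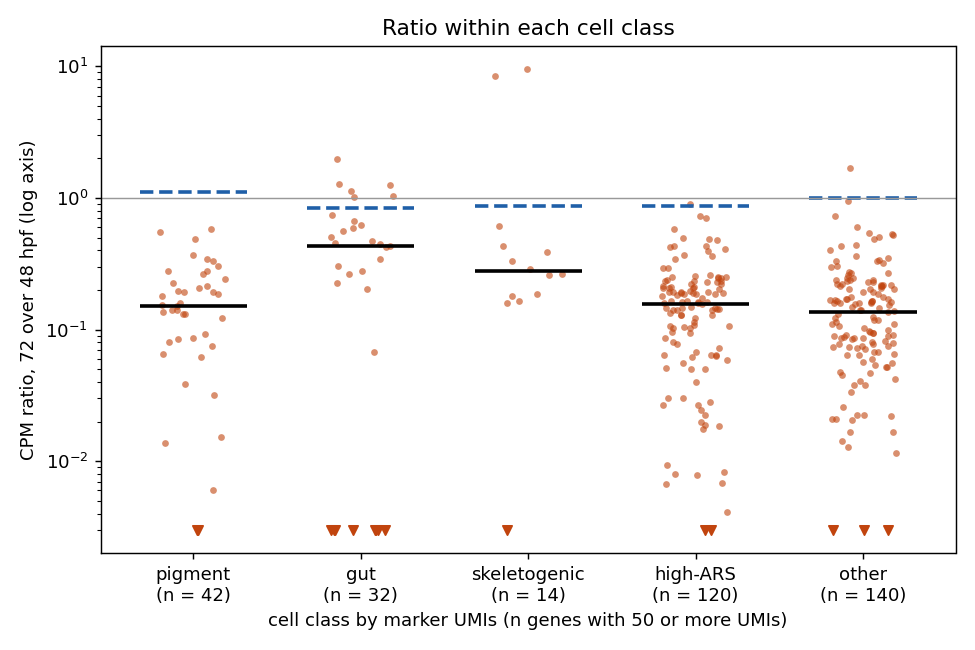
CPM ratio of 72 over 48 hpf within each cell class on a log axis, with 1 point per gene that had 50 or more UMIs in the class, triangles at the lower edge for ratios under 0.003, black bars at the median of these genes and dashed bars at the median of all genes measured in the class. A marker was left out of its own class. Medians were 0.152 in pigment, 0.428 in gut, 0.277 in skeletogenic, 0.158 in high-ARS and 0.137 in other cells, and the 2 genes above 8 in skeletogenic cells, LOC575388 and LOC589794, had 24 of 44 and 84 of 93 UMIs at 72 hpf in a single cell.

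To separate the mix of cells from the level within classes, as arithmetic only, the class levels at 72 hpf were weighted by the UMI shares of the classes at 48 hpf. With the mix so held, 140 of the 150 genes were at 0.5 or below, beside 8.9% of all genes, and the median ratio was 0.146. With the class levels of 48 hpf and only the mix changed, 16 of the 150 were at 0.5 or below, beside 0.437% of all genes, and the median was 1.01. All 16 were at 2 or above in gut cells over the remaining cells in both 48 hpf libraries.

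For Endo16 this measure cannot be read, since the gene alone defines gut cells, so that a lower level moves cells out of the class and counts as mix. Its values were 0.194 from the mix alone and 0.664 with the mix held. GATAe was at 0.422 from the mix alone and 0.355 with the mix held, and blimp1/krox at 0.380 and 0.459. FoxA was at 0.958 from the mix alone and 0.133 with the mix held. In gut cells FoxA was at a ratio of 0.471 (0.308 to 0.691), and in other cells, where most of its UMIs lay, its level was 56.8 CPM at 72 hpf, against 785 CPM at 48 hpf, a ratio of 0.0724. The abundant LOC591984 had 24067 CPM in gut cells at 72 hpf, against 21330 CPM at 48 hpf, and was at 0.944 with the mix held. A single cell held 356 of its 865 UMIs in gut cells at 72 hpf.

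**Figure D4:**
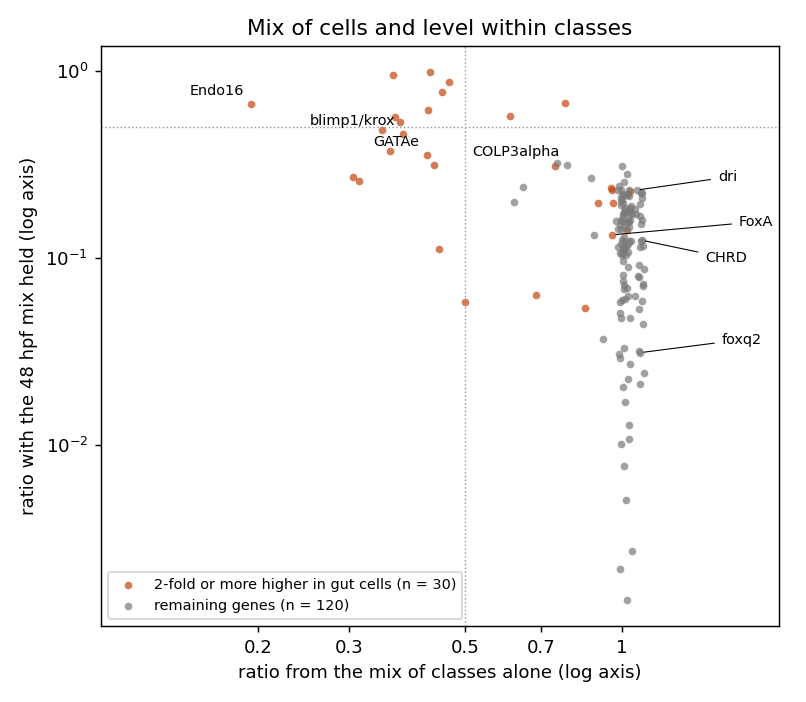
For each of the 150 genes, the ratio of 72 over 48 hpf from the changed mix of classes alone (horizontal, log axis) against the ratio with the 48 hpf mix held (vertical, log axis, values under 0.0015 drawn at that level), with dotted lines at 0.5. Genes at 2-fold or more in gut cells spread to the left, with GATAe at 0.422 from the mix alone and Endo16, which defines the gut class, at 0.194, while foxq2 (1.08 and 0.0313) and FoxA (0.958 and 0.133) lie at the right with low ratios within classes.

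The gut result was repeated with gut cells found by 20 genes other than Endo16, which was chosen after seeing the data. These were the genes highest in gut cells of the control MO library that are not among the 150. Those cells had been marked by Endo16, so the 20 genes are not independent of it. Gut cells by the 20 genes numbered 51 at 72 hpf, 265 in the control MO library and 134 at 48 hpf. The pigment rule was also met by a further 40 cells in the 72 hpf library, 5 in the control MO library and 5 in that of 48 hpf, and the skeletogenic rule by 2 of the control MO library, and these were set apart. Counted as gut, they bring the gut share to 1.37% at 72 hpf, 8.19% in the control MO library and 2.69% at 48 hpf, against 0.765%, 7.97% and 2.59% without them. Together the 20 genes had 392 CPM at 72 hpf, 1883 CPM with the control MO and 844 CPM at 48 hpf. Their CPM ratios of 72 over 48 hpf lay between 0.219 and 2.58, and 14 of the 20 were at 0.5 or below. By the ratio of CPM plus 1, 8.32% of all genes were. Leaving out the 150 genes, the lowest in ratio, in part sets this range and count. LOC592620, at 2.58, and LOC585204, at 1.93, were higher at 72 hpf. In the cells marked by the 20 genes, Endo16 stood at 1951 CPM at 72 hpf and at 5185 CPM at 48 hpf, a ratio of 0.376 (0.326 to 0.433). FoxA was at 0.502, GATAe at 0.355 and blimp1/krox at 0.383 in these cells. With the cells of 2 classes counted as gut, Endo16 was at 0.267, FoxA at 0.356, GATAe at 0.249 and blimp1/krox at 0.265. In the cells that also met the pigment rule, Endo16 was at 42.5 CPM at 72 hpf, 2961 CPM with the control MO and 1051 CPM at 48 hpf. The lower ratios thus depend on whether the 40 such cells at 72 hpf are gut cells, which was not tested. With gut cells by the 20 genes, Endo16 was at 0.312 from the mix alone and 0.347 with the mix held, and at 0.378 and 0.252 with the cells of 2 classes added. From the mix alone, 15 of the 150 genes were then at 0.5 or below, beside 0.449% of all genes. With those cells added 12 were, beside 0.378%.

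By the same measure the genes with the highest level in 1 class were counted. At 2-fold or more over the remaining cells in both 48 hpf libraries were 15 of the 150 genes for pigment, beside 10.4% of all genes, 30 for gut, beside 6.96%, and 16 for skeletogenic cells, beside 8.5%. For high-ARS cells there were 16, beside 7.66%, and for other cells 45, beside 10%. The share for pigment cells was thus close to the background, and those for gut and other cells were above it. A further 39 genes reached this in no class.

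In pigment cells the 15 genes had a median ratio of 0.122 within the class. All 15 were lower, beside 10.6% of all genes measured there, a count that the choice of genes in part sets. LOC575388 had 4371 CPM in pigment cells at 72 hpf, 17234 CPM with the control MO and 28863 CPM at 48 hpf, and pigment cells accounted for 91.8% of its lost CPM. LOC575172 had 13.8 CPM there at 72 hpf, 1221 CPM with the control MO and 2289 CPM at 48 hpf. LOC578648 had 371 CPM at 72 hpf, 2035 CPM with the control MO and 4319 CPM at 48 hpf. The pigment marker pks1, not among the 150, had 3950 CPM in pigment cells at 72 hpf, 8367 CPM with the control MO and 14129 CPM at 48 hpf. The class rule sets the level of pks1 in part, so it is not an independent comparison for the 15 genes.

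In gut cells 25 of the 30 genes, with the marker Endo16 left out, reached 50 UMIs, with ratios between 0 and 1.98 and a median of 0.456. LOC589852, the gene with the highest level in gut cells over remaining cells after Endo16, had 1085 CPM there at 72 hpf, 3233 CPM with the control MO and 3576 CPM at 48 hpf. LOC754064 had 111 CPM in gut cells at 72 hpf, 668 CPM with the control MO and 419 CPM at 48 hpf, from 4 UMIs at 72 hpf. LOC592232 had 250 CPM at 72 hpf, 590 CPM with the control MO and 443 CPM at 48 hpf. With 14 gut cells at 72 hpf, ratios of single genes are imprecise.

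Skeletogenic cells held both collagens. COLP3alpha had 6740 CPM there at 72 hpf, 19754 CPM with the control MO and 15636 CPM at 48 hpf, a ratio of 72 over 48 hpf of 0.431 (0.384 to 0.483). COLP4alpha had 2959 CPM at 72 hpf, 5358 CPM with the control MO and 7644 CPM at 48 hpf. LOC579383 was nearly confined to this class at 48 hpf, with 252 of 261 UMIs, and had 493 CPM there at 72 hpf, 3054 CPM with the control MO and 2650 CPM at 48 hpf. LOC100889149 had 347 CPM at 72 hpf, 670 CPM with the control MO and 1924 CPM at 48 hpf.

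In high-ARS cells all 16 genes were lower, at 0.232 or below, beside 11.6% of all genes measured there that were lower. The choice of genes in part sets this count. LOC583821 had 2.63 CPM in these cells at 72 hpf, 121 CPM with the control MO and 280 CPM at 48 hpf. LOC584598, the gene highest in this class over the remaining cells, had 193 CPM at 72 hpf, 556 CPM with the control MO and 833 CPM at 48 hpf. LOC763130 had 1.503 CPM at 72 hpf, 59.0 CPM with the control MO and 56.1 CPM at 48 hpf. LOC105443584 had 3.13 CPM at 72 hpf, 25.4 CPM with the control MO and 62.7 CPM at 48 hpf. The marker ARS, not among the 150, had 18473 CPM in high-ARS cells at 72 hpf, 18505 CPM with the control MO and 25962 CPM at 48 hpf, levels that the class rule in part sets.

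Other cells, which hold the apical, oral and remaining cells, accounted for the largest share of the lost CPM for 67 of the 150 genes, high-ARS cells for 49, gut cells for 19, pigment cells for 11 and skeletogenic cells for 4. This count was not made over all genes, and it depends on the size of a class. At 48 hpf, other cells held 34.1% of UMIs, high-ARS cells 55.5%, gut cells 2.94%, pigment cells 6.7% and skeletogenic cells 0.618%. In other cells foxq2 had 3.27 CPM at 72 hpf, 55.4 CPM with the control MO and 148.5 CPM at 48 hpf. CHRD had 11.1 CPM there at 72 hpf, 133 CPM with the control MO and 154.6 CPM at 48 hpf. Not had 9.43 CPM at 72 hpf, 97.5 CPM with the control MO and 120 CPM at 48 hpf. All 3 had most of their UMIs in this class at 48 hpf. The deadringer gene dri, a regulator of the oral ectoderm and skeletogenic mesenchyme, had 365 CPM in other cells at 72 hpf, 2235 CPM with the control MO and 1527 CPM at 48 hpf.

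Some genes were lower across classes. LOC105441313 had 80.0 CPM in pigment, 83.5 in gut, 75.1 in high-ARS and 147 in other cells at 72 hpf, against 585, 1236, 700 and 1286 CPM in these classes at 48 hpf. With the control MO it had 923, 1338, 637 and 1288 CPM in the same classes. Its ratio of 72 over 48 hpf lay between 0.0675 and 0.137 in these 4 classes. LOC582823 was likewise at 0.5 or below in 4 classes, with 32.1 CPM at 72 hpf, 469 CPM with the control MO and 425 CPM at 48 hpf over all cells.

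Classes were counted only where a gene was at 20% or more of its highest class level at 48 hpf. This is above the share reached by the markers measured for free RNA. It is not clearly above the share that ARS reached in pigment and skeletogenic cells. Of the 150 genes, 63 were measured in 2 or more such classes and 56 were lower in every one of them, beside 4.17% of all genes so measured, a count that the choice of genes in part sets. At 48 hpf, 65 genes reached this level in 1 class only and 85 in 2 or more, which was not counted over all genes.

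The lowest ratios over classes were those of LOC105446926, LOC105445628, LOC752906, LOC100888446 and LOC754388. LOC752906 had 1 UMI at 72 hpf, against 27.4 CPM with the control MO and 25.3 CPM at 48 hpf. LOC100888446 had 3 UMIs at 72 hpf, all in high-ARS cells, against 9.66 CPM with the control MO and 40.8 CPM at 48 hpf. LOC105446926 had 1 UMI at 72 hpf, against 16.4 CPM with the control MO and 28.2 CPM at 48 hpf.

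To compare the share of cells with a UMI of a gene at equal depth, 500 UMIs were drawn from every kept cell, all of which had that many. Its median over the 150 genes was 0.195% at 72 hpf, 1.82% with the control MO and 1.60% at 48 hpf, against 0.645%, 6.97% and 5.34% without thinning. Over all tested genes the thinned median was 1.25% at 72 hpf, 1.26% with the control MO and 1.30% at 48 hpf. Of the 150 genes, 13 were found in 10% or more of thinned cells at 48 hpf, and 47 were found in under 1%. These 2 counts were not made over all genes.

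Wide and narrow genes both occurred. LOC105441313 was found in 5.09% of thinned cells at 72 hpf, 33.3% in the control MO library and 30.8% at 48 hpf. LOC754388 was found in 0.135% at 72 hpf, 1.08% with the control MO and 0.503% at 48 hpf, with 1.00, 2.61 and 4.08 UMIs per thinned cell that had any. FoxA was found in 1.31% at 72 hpf, 8.79% with the control MO and 10.9% at 48 hpf. Among other cells its share was 2.26% at 72 hpf, 14.6% with the control MO and 22.5% at 48 hpf. In pigment cells, taken as a type that should lack FoxA, it was 0.823%, 0.985% and 3.68% in the same order, with median depths before thinning of 1089, 2078 and 1738 UMIs. LOC575388 was found in 17.6% at 72 hpf, 10.9% with the control MO and 20.5% at 48 hpf, and held 2.33 UMIs per such cell at 72 hpf, 5.85 with the control MO and 8.26 at 48 hpf. In high-ARS cells its share was 5.65% at 72 hpf, 2.95% with the control MO and 9.76% at 48 hpf.

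The control MO library took no part in the choice of genes and gives their 48 hpf level in another preparation. The median ratio of control MO over uninjected 48 hpf was 1.06, and 92 of the 150 genes lay between 0.5 and 2. At 0.5 or below were 23 genes, beside 10.7% of all genes, and at 2 or above 35 genes, beside 8.48%. The uninjected 48 hpf values took part in the choice, which favours genes high there, so these ratios are not independent of it. All 150 were higher with the control MO than at 72 hpf, and 146 had a ratio of 72 hpf over control MO of 0.5 or below, beside 18.5% of all genes. The 72 hpf values are those that chose the genes as low, so these counts are largely set by the choice. The 4 exceptions were LOC588907, LOC585786, LOC752794 and LOC575388.

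Among members grouped by class, those of the gut stood highest in this comparison. Of the 30 genes at 2-fold or more in gut cells, 18 were at 2 or above and none at 0.5 or below, with a median of 2.44. The highest were LOC575684 with 710 CPM with the control MO and 129 CPM at 48 hpf, LOC754064 with 78.5 and 16.3 CPM, and LOC592232 with 73.6 and 17.8 CPM. Gut cells made up 10.2% of UMIs with the control MO and 2.94% at 48 hpf, and the part of this in the difference was not tested. The genes of other cells had a median of 0.856, those of pigment cells 0.949 and those of skeletogenic cells 1.28. The counts and medians by class were not made over all genes, of which 589 were at 2-fold or more in gut cells. Whether the 30 members, which include the gut marker Endo16, differ from other genes of the gut was thus not tested.

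The 16 genes of high-ARS cells had a median of 0.596, and 6 were at 0.5 or below, beside 10.7% of all genes. LOC588907 was the lowest of the 150, with 3.54 CPM with the control MO and 28.2 CPM at 48 hpf, while its level at 72 hpf was 3.01 CPM. LOC585786, a gene of pigment cells, had 63.8 CPM at 72 hpf, 64.8 CPM with the control MO and 367 CPM at 48 hpf. For these 2 genes the control MO library was near the 72 hpf level and not near that of uninjected 48 hpf. Within pigment cells LOC585786 had 697 CPM at 72 hpf, 1250 CPM with the control MO and 4981 CPM at 48 hpf.

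**Figure D5:**
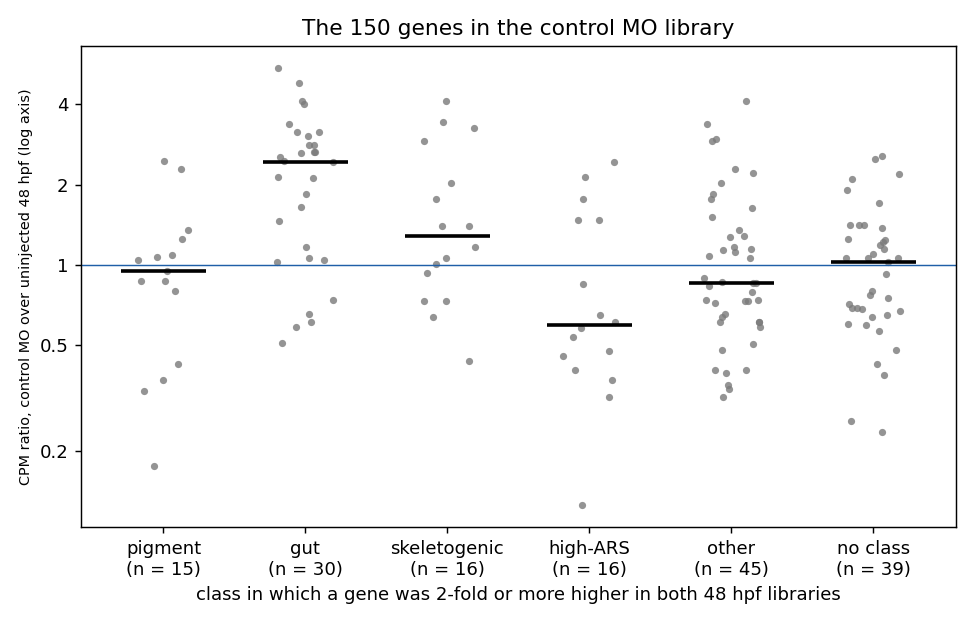
CPM ratio of control MO over uninjected 48 hpf for the 150 genes on a log axis, grouped by the class in which a gene was at 2-fold or more over the remaining cells in both 48 hpf libraries, with 1 point per gene and bars at the median (11 genes appear in 2 classes). The gut group had a median of 2.44 and the high-ARS group 0.596, and the 39 genes of no class had 1.03.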

How the data were processed

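Droplet reads were turned by the authors into UMI counts with Cell Ranger, using gene models of Spur_4.2, and the deposited values are those raw counts. Sample groups came from the labels. From the counts, cells with 400 to 2500 genes were kept and summed per library or class, and CPM were set against all UMIs of the same cells (Python 3.11.15 with pandas 2.3.3, numpy 2.4.6, scipy 1.17.1 and matplotlib 3.10.9). Seurat 3.1.4 is named in the submitters' processing notes and was not used here. Intervals were exact Poisson for levels, exact conditional binomial for ratios and Clopper-Pearson for shares, at 95% and for counting error only. Cells are not replicates, so no p-value was computed. No doublet caller was run. Counting was tested on simulated data. The 150 genes, the gene lists and the class markers were chosen with earlier results of these data known.

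Genes named in the text are the 10 lowest in ratio, the 10 highest at 48 hpf, the 3 highest and 3 lowest with the control MO, the 3 highest in each class, the 5 with the lowest ratios over classes, list members, and the last 2 inside and first 2 outside the 150. The others were chosen after their values were seen. Of the 150 genes, 117 matched the gene table of assembly Spur_5.0, which was used for names and neighbours only. Lists of cilia, ribosomal, histone, mitochondrial, proteasome and stress genes could not be matched, because products are not named in the sources used here. In the lists that remained, 1 of 1 tested gene each of the germ line (vasa, ratio 0.615) and metalloproteases (0.781) lay above 0.5, and 1 further list is not reported here.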

Additional observations from a re-analysis of the deposited data

Results flagged for a closer look

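For 5 of the 150 genes the ratio of 72 over 48 hpf lay above 1 in one class and below 1 in another, with the exact conditional binomial 95% interval of each off 1. The difference between classes was not tested, and with 1 library per stage the intervals cover counting error only. LOC575388 was at 9.55 (4.45 to 23.5) in skeletogenic cells, from 44 UMIs at 72 hpf, in 4 cells with 24 in a single cell, and 8 at 48 hpf, and at 0.151 in pigment cells, from 4426 UMIs at 72 hpf and 29737 at 48 hpf. LOC589794 was at 8.50 (5.15 to 14.8) in skeletogenic cells, with 93 UMIs at 72 hpf, of which a single cell held 84, and 19 at 48 hpf, of which a single cell held 14, and at 0.164 in other cells.

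LOC100893214 was at 1.69 (1.07 to 2.71) in other cells, where a single cell held 53 of 55 UMIs at 72 hpf, and 0.0152 in pigment cells, where it had 5 UMIs at 72 hpf and 334 at 48 hpf. LOC591984 was at 1.13 (1.05 to 1.21) in gut cells and 0.598 in other cells, and LOC575684 at 1.25 (1.03 to 1.51) in gut cells and 0.248 in other cells. The gut class has 14 cells at 72 hpf and the skeletogenic class 17, and a single gut cell held 356 of the 865 UMIs of LOC591984 and 34 of the 122 of LOC575684. The intervals treat UMIs as independent, which those of a single cell are not.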

How the results depend on the processing

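Of 80 values under alternative settings, 12 moved. The other 68 lay within the 95% order-statistic interval of the reported median or within 1.5 times the reported count. None changed direction, but ratios were taken again on the same 150 genes, whose direction the choice largely set. The bound for counts is wide, since sharing 102 of the 150 genes lay within it. The median ratio of the 150 genes was 0.127 with a pseudocount of 0.1 CPM and 0.332 with 10 CPM, where 341 genes in place of 704 were at 0.5 or below. Under other cell filters, scaling, thinning and depth matching, at least 106 of the 150 genes were chosen again, with 10 CPM as pseudocount 102 and with a floor of 400 UMIs 98. The median in gut cells was 0.625 with marker thresholds 2 times as high and 0.622 with classes set after thinning. The median share of cells with a UMI was 0.645% at 72 hpf, 6.97% with the control MO and 5.34% at 48 hpf without thinning, and 0.330%, 3.21% and 2.55% after thinning to 1000 UMIs. The cause was not tested for these changes. Leaving out the ribosomal and mitochondrial genes from the total was not run, since these genes are not named here, and leaving out markers that are members was not run as planned, since Endo16 is the one gut marker. No paired analysis was possible because each condition is 1 library. The gut and skeletogenic values at 72 hpf come from 14 and 17 cells, and precision beyond counting error is unknown.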

Other observations

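Cells marked by 1 of the 150 genes were compared with the remaining cells of the same library, a choice made after the values were seen. Cells with at least 2 UMIs of foxq2 were 3 of 6666 at 72 hpf, 53 of 3323 with the control MO and 132 of 5170 at 48 hpf, and those with at least 2 of FoxA were 77, 469 and 693 in the same order. These counts depend on depth, which was lowest at 72 hpf. In foxq2 cells, 4 other members were at 5-fold or more over the remaining cells in both 48 hpf libraries, beside 0.177% of all tested genes, namely LOC583193, LOC764367, LOC578400 and AnkAT-1, an ankyrin repeat gene of the apical tuft in the sea urchin Hemicentrotus pulcherrimus. AnkAT-1 had 129 CPM in foxq2 cells with the control MO and 268 CPM at 48 hpf, against 4.92 and 7.04 CPM in the remaining cells of these libraries. Over all cells it had 1.85 CPM at 72 hpf, 7.09 CPM with the control MO and 14.8 CPM at 48 hpf. LOC583193 had 355 CPM in foxq2 cells with the control MO and 1052 CPM at 48 hpf.

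In FoxA cells, 28 other members reached 5-fold in both 48 hpf libraries, beside 0.887% of all tested genes, and in Endo16 cells 21 did, beside 1.05%. The 19 genes that both lists shared were 67.9% of the FoxA list and 90.5% of the Endo16 list. CHRD was among the genes of FoxA cells and not of Endo16 cells, with 186 CPM in FoxA cells with the control MO and 275 CPM at 48 hpf.

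Some of the 150 genes lie next to each other in the gene table of assembly Spur_5.0. Of the 117 members found there, 16 (13.7%) had another member within 5 table rows and 100 kb, against 2.94% of the 7176 other tested genes. They include COLP3alpha with COLP4alpha, Endo16 with LOC584598, LOC754388 with LOC576786, and a run of LOC100888863, LOC100888533, LOC100888601 and LOC100889104. Neighbours can share their class or not. Endo16 was highest in gut cells and LOC584598 in high-ARS cells, whereas LOC100888863 and LOC100888533 were both highest in high-ARS cells, with 0.751 CPM each there at 72 hpf and 91.0 and 111 CPM at 48 hpf. Neighbouring genes can be near-identical copies between which reads are divided, which could not be checked without sequences.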
